A study of Mus musculus with 5 samples.

Results

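The genes described here code for proteins that acinar cells of the mouse salivary gland release into saliva. They were listed by symbol and were Mucl2, Prol1, Scgb1b27, Scgb2b26, Car6, Smgc, Dcpp1, Pip, Muc19 and Lpo, 10 of the 32932 genes found in the gene lists of the series. Of these, 9 stood in the list of every library, while Muc19 stood only in that of the 11-day organoids. The list names genes and sets no threshold on a measured value.

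Saliva is made in 2 steps. Acinar cells secrete water, salt and most of the protein, and the ducts then change the salts on the way to the mouth. To do so an acinar cell fills its cytoplasm with rough endoplasmic reticulum and secretory granules, and much of its mRNA codes for a handful of export proteins. The list covers mucin-like and proline-rich glycoproteins that coat and lubricate (Mucl2, Prol1, Smgc, Muc19), subunits of the androgen-binding protein of mouse saliva (Scgb1b27, Scgb2b26), secreted enzymes (Car6, a carbonic anhydrase, and Lpo, lactoperoxidase) and other secreted proteins (Pip, prolactin-induced protein, and Dcpp1, demilune cell and parotid protein 1).

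The series compared freshly isolated submandibular gland with mouse salivary gland organoids (mSGOs), which grow from dissociated gland cells in Matrigel, a basement membrane gel, in a medium with Wnt3a- and R-spondin1-conditioned medium, Y27632, EGF, FGF2, N2, insulin and dexamethasone. All mice were C57BL/6, and per the study's methods they were female. The labels give an age of 8 to 12 weeks for all groups except the 11-day mSGOs, for which they give none. The 5 groups were tissue, non-irradiated 7-day mSGOs (control), 7-day mSGOs given 7 Gy of photons on day 5, 7-day mSGOs given 7 Gy of protons on day 5, and non-irradiated 11-day mSGOs. Organoids of each group came from 4 animals, the number of animals behind the tissue is not given in the labels, and those of the 11-day group from another batch of animals that was run separately, so age of the culture, animals and run cannot be told apart there. From each sample 45000 cells that excluded propidium iodide were sorted and loaded for droplet-based 3′ sequencing. Each group was 1 library, so no difference was tested, and all 95% intervals below cover counting error only and not the variation between animals or cultures.

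UMIs (unique molecular identifiers, 1 per captured mRNA molecule) were summed over kept barcodes, those with at least 200 detected genes, at most 5% mitochondrial UMIs and no doublet call. This left 1402 tissue, 6494 control, 16929 photon, 15325 proton and 9484 11-day barcodes with 5925403 to 32102942 UMIs a library. Levels are given as CPM, the UMIs of a gene scaled to 1e6 UMIs of the library. As UMIs are read from the 3′ end of a transcript, they were not divided by gene length. Tissue stood apart from the other libraries, with a median of 278 genes a kept barcode, and 11597 of its 13547 deposited barcodes had under 200 genes. Deposited organoid libraries shared 33 to 72 barcode sequences with tissue and 33 to 98 with each other. The 9 acinar markers, none of which is in the list described here, summed to 695 CPM in tissue and to 165 to 352 CPM in mSGOs, and the 5 basal duct markers to 9.62 CPM and to 5696 to 12043 CPM. The acinar sum joins unlike markers. Tmed3 was at 98.2 CPM in tissue and at 77.8 to 120 CPM in mSGOs. Bhlha15, Creb3l1 and Derl3 were at 34.9 to 47.8 CPM in tissue and at 1.184 CPM or less in mSGOs.

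Start sites of 9 of the 10 genes were matched by symbol to a table of RefSeq promoters on GRCm38.p6, and Muc19 was not matched. Because each of the 9 genes was far higher in tissue than in any mSGO library, the 60 bases before each tabled start were searched for the letters TATAA, the core of a TATA box, on both strands (TTATA on the printed strand), counting overlapping matches. They were present for 4 of the 9 genes (44.4%), Scgb2b26, Smgc, Dcpp1 and Pip, and in 7.25% of the windows before the starts of all 32851 promoters in the table. The matches lay close to the start in each, at -27 to -23 and -28 to -24 for Scgb2b26, -30 to -26 for Smgc, -26 to -22 for Dcpp1 and -28 to -24 for Pip. Within the whole 300 bases of the table they were found for 5 of 9 genes (55.6%) and in 24.9% of all promoters. The windows of 3 genes with a match are shown with that of Mucl2, the most abundant gene, which had no exact match. Near forms of these letters were not searched for in any gene. Capitals mark the matched letters, and each sequence runs 5′ to 3′ on the strand of its gene.
Scgb2b26 (chr7:33944986-33945045, minus strand): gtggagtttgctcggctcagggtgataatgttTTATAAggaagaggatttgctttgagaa
Smgc (chr15:91838268-91838327, plus strand): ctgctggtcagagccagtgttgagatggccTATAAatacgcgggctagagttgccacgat
Pip (chr6:41847489-41847548, plus strand): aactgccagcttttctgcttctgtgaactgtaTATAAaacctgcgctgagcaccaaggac
Mucl2 (chr15:103899313-103899372, minus strand): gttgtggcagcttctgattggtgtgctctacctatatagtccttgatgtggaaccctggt

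A match describes letters and was not tested as a site. For Dcpp1 the start in the promoter table lies inside the span of the gene given next, so its window is before the tabled start only. In the same annotation both secretoglobin genes lie on chromosome 7, Scgb2b26 at 33942997 to 33944985 and Scgb1b27 at 34021481 to 34022881. Mucl2 and Smgc lie on chromosome 15, at 103895855 to 103899312 and at 91838328 to 91861435, Prol1 on chromosome 5 at 88317312 to 88328817, Car6 on chromosome 4 at 150187015 to 150201135, Pip on chromosome 6 at 41847549 to 41852065, Dcpp1 on chromosome 17 at 23880669 to 23882853 and Lpo on chromosome 11 at 87806428 to 87826114.

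To see how much of the tissue RNA came from secretory products, the UMIs of the 9 genes were summed. They made up 68.28% (68.24 to 68.31) of all UMIs in the kept tissue barcodes (26.1% where only barcodes with 1% or more of their UMIs from the nuclear transcript Malat1 were used), and 7 of the 9 were among the 10 most abundant genes. Mucl2 alone gave 524115 CPM (523533 to 524699), 52.4% of the UMIs. It was present in every one of the 1402 kept barcodes, with 153 to 139523 UMIs in each, and its share of a barcode ran from 3.37% over a median of 58.4% to 83.3%.

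The other glycoproteins were far below Mucl2. Prol1, also known as Muc10, a salivary mucin, was at 24636 CPM (24510 to 24763), the fifth gene by UMIs. Smgc, submandibular gland protein C, was at 6992 CPM (6925 to 7060) and ninth. Of the secretoglobins, which pair an Scgb1b with an Scgb2b chain in androgen-binding protein, Scgb1b27 was second at 77972 CPM (77747 to 78197) and Scgb2b26 sixth at 22154 CPM (22034 to 22274). The third most abundant gene, Scgb2b27 (48681 CPM), is a further Scgb2b chain outside the list.

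Among the enzymes Car6, which speeds the conversion of carbon dioxide to bicarbonate, was at 16168 CPM (16066 to 16271). Lpo, which makes the antimicrobial oxidant hypothiocyanite, was at 67.5 CPM (61.1 to 74.5), 489th of all genes, with UMIs in 220 barcodes (15.7%) and at most 30 in any of them. Pip was at 10529 CPM (10446 to 10612) and was found in 1401 barcodes. Dcpp1 was at 131 CPM (122 to 140), 256th, with UMIs in 329 barcodes (23.5%). The list therefore held 7 genes at 6992 CPM or more and a pair, Dcpp1 and Lpo, at 131 CPM or less. The other 2 of the 10 most abundant genes were Gm42418 (27489 CPM), a gene model that overlaps ribosomal RNA, and Klk1 (6343 CPM), a duct kallikrein.

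**Figure D1:**
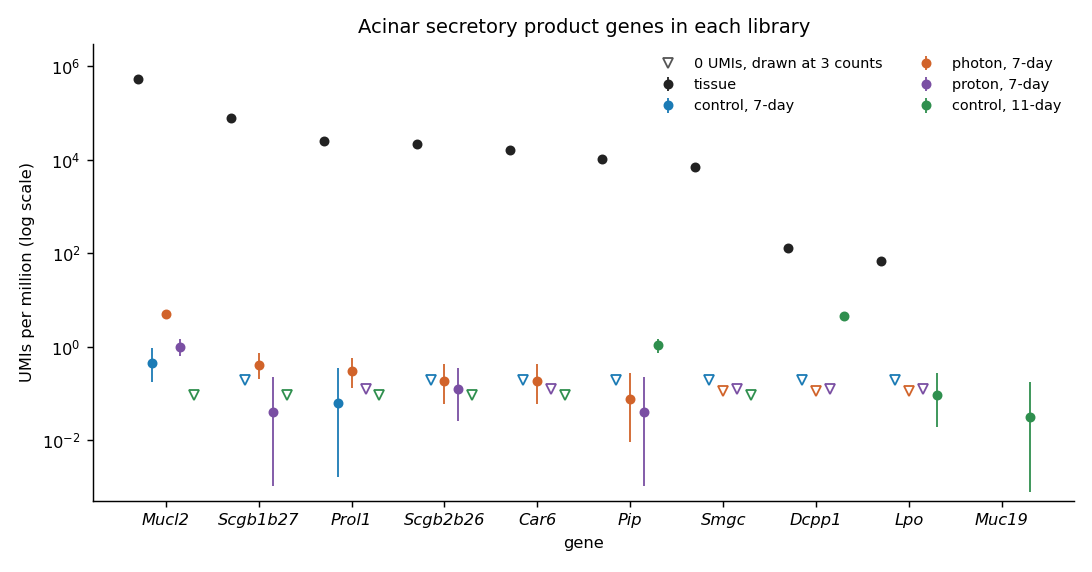
Level of each gene in each of the 5 libraries, in CPM on a log axis; points are values with 95% counting intervals and open triangles mark 0 UMIs, drawn at 3 counts. Tissue lies above every mSGO library for each of the 9 genes, from 67.5 CPM for Lpo to 524115 CPM for Mucl2, and mSGO values run up to 4.90 CPM.

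Tissue barcodes of every kind carried these transcripts. Clusters were made without the 10 genes and named from fixed markers. In the erythroid-like cluster, whose leading genes were Alas2 and the globins, the 9 genes made up 73.7% of UMIs (200 barcodes, median 2398 UMIs). In the macrophage-like cluster they made up 69.9% (264 barcodes, median 2325.5), and in the endothelial-like cluster 72.0% (123 barcodes, median 2084). The T or NK-like cluster held 56.7% (59 barcodes, median 2305). These cell types do not make saliva proteins, so a UMI of Mucl2 in a tissue barcode was not by itself read as expression by that cell. A barcode held a median of 1475 Mucl2 UMIs in the erythroid-like, 1354 in the macrophage-like, 1243 in the endothelial-like and 1111 in the T or NK-like cluster. The median was 7625 in cluster 6, and 505 and 511.5 in clusters 7 and 9, all described below. Where these UMIs came from was not tested.

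The share did differ between clusters. It was 76.0% in cluster 1, led by Foxi1, Aldh1a3 and Ascl3, and 61.7% in cluster 4, led by Slit2 and Klk1b kallikreins. It was 22.2% in cluster 7, led by Osmr and Pcdh17, and 13.6% in cluster 9, led by Il12b and Ccr7, and these clusters had medians of 3334 and 6923 UMIs a barcode. Clusters 10 (S100a8, Retnlg) and 11 (Ptn, Dcn, Krt14) held 56.0% and 53.5%. Over summed UMIs the highest share, 78.3%, was that of cluster 6, with 79 barcodes and a median of 14534 UMIs, but its median over barcodes, 72.3% (5th percentile 21.6%), was below those of clusters 1 (75.9%), 3 (74.9%) and 5 (72.9%). Of the 9 acinar markers, 8 were at least 2-fold higher in it than in the other barcodes (Aqp5, Bhlha15, Slc12a2, Kcnn4, Chrm3, Derl3, Creb3l1 and Ano1), as were 5 of the 6 intercalated duct markers, and no other cluster had an acinar marker at that level. As none of them was among its 10 leading genes, the marker rule gave it no type, and it is called RNA-rich here. Its leading genes by ratio included Fam13a, Epha5 and Tll1. In the 11597 barcodes with under 200 genes the share was 70.3%, with a 5th percentile of 57.8% and a 95th of 78.0% over barcodes.

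**Figure D2:**
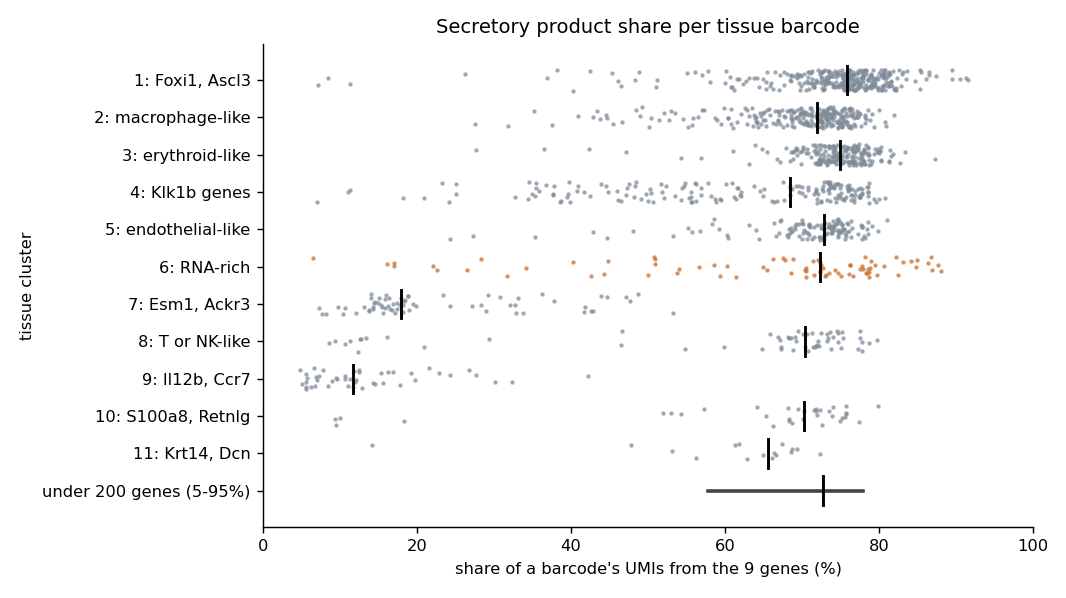
Share of UMIs from the 9 genes in each kept tissue barcode (x axis, %), by cluster (y axis); black ticks are medians and the bottom line spans the 5th to 95th percentile of the barcodes with under 200 genes. The other clusters have medians of 65.5% to 75.9%, whereas clusters 7 and 9 have medians of 17.9% and 11.7%.

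Relative to Mucl2, the RNA-rich cluster held more of 6 products than any of the 10 other clusters. The secretoglobins and Pip varied little among those 10, and Dcpp1 (0.162 to 0.699) and Lpo varied most. Scgb1b27 had 119 to 129 UMIs per 1000 Mucl2 UMIs in the 10 other clusters and 185 in the RNA-rich one. For Prol1 the values were 25.7 to 38.4 and 72.4, and for Car6 18.3 to 29.0 and 45.6. Each of these 3 was above the range of the other clusters. The same held for Scgb2b26, with 31.4 to 37.3 against 51.6, and for Pip, with 14.9 to 18.6 against 26.6. Lpo, at 0.0278 to 0.193 and 0.164, stayed within the range of the other clusters. The barcodes with under 200 genes lay within the range of the 10 clusters for Scgb1b27 (126) and Pip (17.3), at its lower end for Scgb2b26 (31.4), and just above it for Prol1 (39.7) and Car6 (29.6). Single barcodes overlapped, as Prol1 had a median of 57.3 per 1000 Mucl2 UMIs in the RNA-rich cluster (5th to 95th percentile 20.4 to 126) and of 29.4 in the other kept barcodes (18.9 to 50.3). For Scgb1b27 the medians were closer, 137 (91.9 to 268) and 124 (101 to 154). Without the 3 kept barcodes with the most UMIs, all 5 ratios stayed above the range of the other clusters, at 174 for Scgb1b27, 69.2 for Prol1, 43.5 for Car6, 48.7 for Scgb2b26 and 22.8 for Pip.

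**Figure D3:**
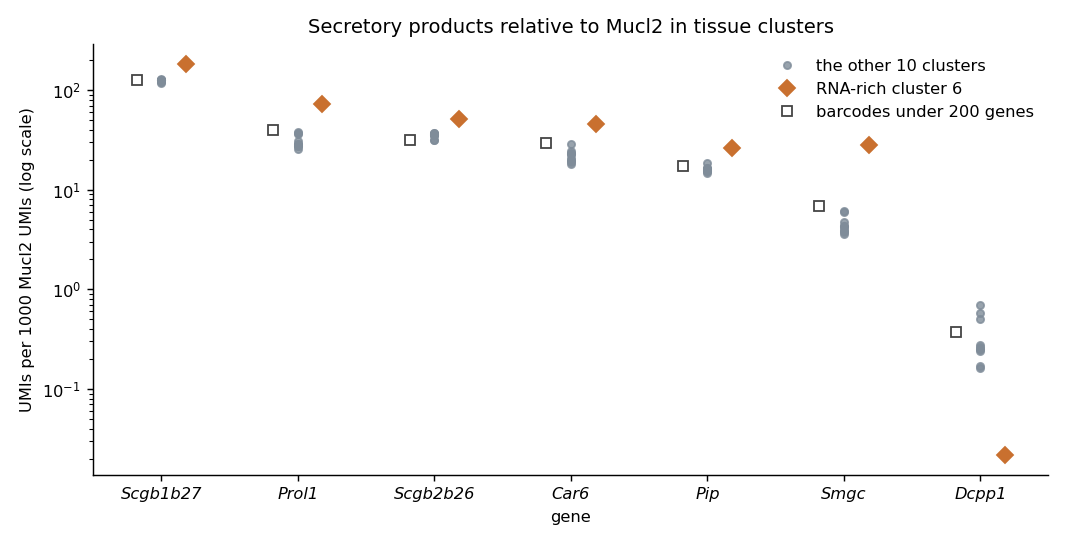
UMIs of 7 genes per 1000 Mucl2 UMIs (log axis) in the RNA-rich tissue cluster (diamonds), the 10 other clusters (circles) and the tissue barcodes with under 200 genes (squares). Smgc shows the widest step upwards, from at most 6.10 to 28.01, carried by 10 of the 79 barcodes (the other 69 are at 1.16, below every other cluster), and Dcpp1 is lower in the RNA-rich cluster, at 0.0216.

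Smgc had a pattern of its own. In the adult gland this protein is best known from cells of the intercalated duct rather than from acini. Of its kept tissue UMIs, 78.2% lay in 10 barcodes, and 4 barcodes held at least 50% of them, whereas 162 barcodes were needed to reach that share of all UMIs. Within the RNA-rich cluster, 10 barcodes had an Smgc share of 6.23% to 49.8%, and the other 69 had at most 1.13%. The line between them, at 5%, was set after the values were seen.

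In the 10 barcodes with much Smgc, 6 of the other 8 products were lower, Dcpp1 was higher and the intervals of Lpo overlapped. Smgc was at 293193 CPM in them and at 668 CPM in the other 69, and Mucl2 was at 202846 and 574232 CPM. The top barcode by Smgc share held 5348 Smgc and 896 Mucl2 UMIs of 10730, and the one with the most Smgc held 9102 Smgc and 618 Mucl2 UMIs of 18319. Per 1000 Mucl2 UMIs, Smgc stood at 1445 and 1.16 in these sets of barcodes. On that scale Prol1 stood at 63.9 and 72.6, Scgb1b27 at 171 and 186, Scgb2b26 at 57.8 and 51.5, Car6 at 39.6 and 45.7 and Pip at 44.2 and 26.2. Dcpp1 was at 72.6 CPM (31.4 to 143) in the 10 barcodes and at 8.76 CPM (5.19 to 13.9) in the 69, from 8 and 18 UMIs. Lpo was at 63.5 CPM (25.5 to 131) and 92.5 CPM (79.8 to 107).

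Other genes also separated these sets, and those named next were chosen after their values were seen. Fgg, the fibrinogen gamma chain, had 62 UMIs in the 10 barcodes and 0 in the 69. Tll1, a secreted metalloprotease, had 29 and 2, Serpinb11 had 35 and 4, and Prlr, the prolactin receptor, had 49 and 23. The water channel Aqp5, an acinar and intercalated duct marker, was at 290 and 285 CPM. Slc12a2, the sodium-potassium-chloride cotransporter, was at 835 and 219 CPM, while Derl3, an acinar endoplasmic reticulum protein, was at 18.2 and 76.9 CPM from 2 and 158 UMIs. Over all deposited tissue barcodes, 17 had an Smgc share of at least 5%, and the 10 that were kept were all in the RNA-rich cluster.

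**Figure D4:**
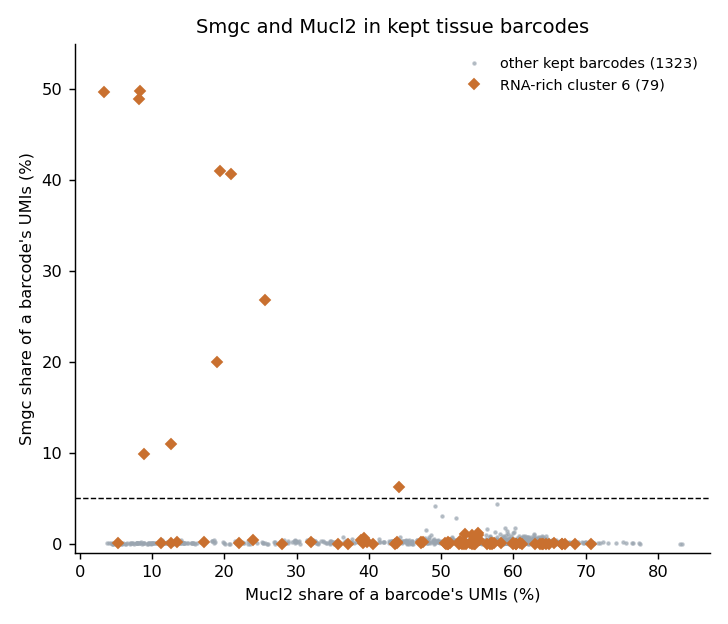
Smgc share against Mucl2 share of the UMIs of each kept tissue barcode (both in %); diamonds are the 79 barcodes of the RNA-rich cluster and the dashed line is at 5% Smgc. The 10 barcodes above the line hold 6.23% to 49.8% Smgc, and the other 69 barcodes of that cluster lie at 1.13% or less.

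Dcpp1 went against the name of the list. Dcpp proteins were first described in serous demilune cells of the sublingual gland and in the parotid. In the RNA-rich cluster, where Prol1, Car6 and Pip were highest, Dcpp1 was at 12.0 CPM (7.85 to 17.6), the lowest level of the 11 clusters. The next lowest was cluster 9 at 55.1 CPM, and the barcodes with under 200 genes were at 207 CPM (199 to 216). Cluster 1 was at 426 CPM, of which 1 barcode gave 331 of 436 UMIs, and at 103 CPM without it. That barcode also held 262 UMIs of Dcpp2 and 437 of Dcpp3 among 2218. Without it the level in all kept tissue was 74.8 CPM.

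Over all deposited tissue barcodes, 7 had at least 50 Dcpp1 UMIs, a limit set after the values were seen. Only 1 of them was kept, as 5 had under 200 genes and 1 had 40.4% mitochondrial UMIs. They had 51 to 331 each and held 21.9% of all Dcpp1 UMIs. All 7 also carried Dcpp2 (28 to 262 UMIs), Dcpp3 (67 to 437), Wfdc18 (4 to 45) and Bpifa2 (2 to 25), a secreted salivary protein. Bpifa2 was at 5510 CPM in these barcodes and at 24.4 CPM in all other deposited ones. The 3 Dcpp genes are near copies, with 92.0% (Dcpp2) and 92.3% (Dcpp3) of the last 300 transcript bases identical to Dcpp1, and in GENCODE vM39 the Dcpp1 gene lies wholly within Dcpp2 on the same strand. Counts may have been split between them, so the Dcpp1 values are uncertain. Likewise Smgc lies wholly within Muc19 on the same strand.

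To see what remained of the secretory products in culture, the same genes were read in mSGOs. In the 7-day control 8 UMIs of 15837177 came from the 9 genes, 0.505 CPM (0.218 to 0.995), against 682763 CPM in tissue. On the log2 scale, with 1 CPM added to each level, the ratio of control to tissue was -18.79 (-19.10 to -18.38). Of the 8 UMIs, 7 were Mucl2 and 1 was Prol1. The other 7 genes had 0 UMIs, which allows up to 0.189 CPM at 3 counts.

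Each of the 9 genes was at least 2-fold lower in the control than in tissue, as were 5.17% of the 4254 genes with at least 200 UMIs in the 2 libraries and 20 CPM in the higher one, of which 78.3% were at least 2-fold higher. The 9 genes passed those minimums only through tissue. Mucl2 fell from 524115 to 0.442 CPM (0.178 to 0.911). Smgc was at least 36911-fold lower, Pip at least 55581-fold, Dcpp1 at least 690-fold and Lpo at least 356-fold, where 0 UMIs were set at 3 counts. In bulk sums such as these, fewer cells of a type and less RNA in each cannot be told apart.

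In photon-treated mSGOs 164 UMIs came from the 9 genes, 6.05 CPM (5.16 to 7.05), and in proton-treated mSGOs 29, 1.17 CPM (0.785 to 1.68). The photon library was 12.0-fold (5.93 to 28.2) above the control and the proton library 2.32-fold (1.03 to 5.87). The proton library was at 0.194 times (0.126 to 0.289) the photon level. In barcodes with at least 2500 genes the log2 ratio to the control was 0.25 after photons, where it was 2.23 in all kept barcodes, and -0.017 after protons, where it was 0.53. The photon and the proton value share the control library.

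Mucl2 made up most of these UMIs. It had 7 UMIs in the control, 133 after photons (4.90 CPM, 4.11 to 5.81) and 24 after protons (0.969 CPM, 0.621 to 1.44). For Mucl2 the photon library was 11.1-fold (5.24 to 28.1) above the control, and the proton interval, 0.917 to 6.03, included no change. Scgb1b27 had 0, 11 and 1 UMIs, Prol1 1, 8 and 0, Scgb2b26 0, 5 and 3, Car6 0, 5 and 0, and Pip 0, 2 and 1. Smgc, Dcpp1 and Lpo had 0 in all 3 libraries.

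These UMIs lay singly in many barcodes. After photons Mucl2 was found in 121 of 16929 barcodes (0.715%, 0.593 to 0.853), 113 of them with 1 UMI and none with more than 3. When each barcode was thinned to 500 UMIs, 0.242% of photon, 0.0587% of proton and 0.0308% of control barcodes had a Mucl2 UMI, against 100% in tissue. The median depth was 1164 UMIs in the 149 photon barcodes with a UMI of any of the 9 genes and 1063 in those without. Only 3 of the 149 held UMIs of more than 1 of the genes.

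A UMI of Aqp5, which is not particular to acinar cells, was present in 4 of the 149 photon barcodes (2.69%) and in 1.37% of those without a member of the list. Among barcodes with Aqp5, 1.72% (0.470 to 4.34) held a product UMI after photons, and 0.869% (0.733 to 1.02) of those without Aqp5, so the intervals overlapped. In the control Aqp5 was present in 2 of the 8 barcodes with a product UMI and in 5.04% of the others, at median depths of 6404.5 and 899 UMIs, and at 11 days in 3 of 21 (14.3%) and in 3.52%, at 2833 and 3028 UMIs. In the proton library none of the 185 Aqp5 barcodes did, a count of 0 that allows up to 1.97%. Of the product UMIs in deposited barcodes, 1 of 8 in the control, 1 of 187 after photons and 0 of 33 after protons lay in a barcode sequence that tissue also had. Of all deposited barcodes of these libraries, 0.4615%, 0.3752% and 0.3434% had such a sequence.

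Within the 9 genes, the shares in the photon library were set beside those of tissue. Mucl2 made up 81.1% (74.3 to 86.8) of the UMIs of the 9 genes, against 76.8% in tissue. Prol1 made up 4.88% (2.13 to 9.39) and 3.61%, Scgb2b26 3.05% (0.997 to 6.97) and 3.25%, Car6 3.05% (0.997 to 6.97) and 2.37%, and Pip 1.22% (0.148 to 4.34) and 1.54%. For these genes, for Scgb1b27 at 6.71% (3.40 to 11.7) against 11.4%, and for Smgc at 0% (0 to 2.22) against 1.02%, the tissue value lay within the photon interval.

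Other transcripts of tissue cells were read beside these. The 5 erythroid markers, with 18165 UMIs in tissue, had 0, 0 and 1 UMIs in control, photon and proton libraries. The 8 macrophage markers summed to 1142 CPM in tissue and to 14.6, 26.7 and 23.1 CPM in the control, photon and proton libraries, in each of which 6 of them, C1qa, C1qb and C1qc included, were at 0. Scgb2b27 was at 4.29, 7.00 and 4.65 CPM in the control, photon and proton libraries. It had 190 UMIs beside 133 of Mucl2 after photons, and 288453 beside 3105595 in tissue. Wfdc12, a whey acidic protein-type inhibitor, was at 4.93, 12.3 and 5.53 CPM, against 2975 CPM in tissue. Control, photon and proton libraries were pooled before sequencing per the series' design. Whether RNA of another library or of dead tissue cells gave the product UMIs was not tested.

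**Figure D5:**
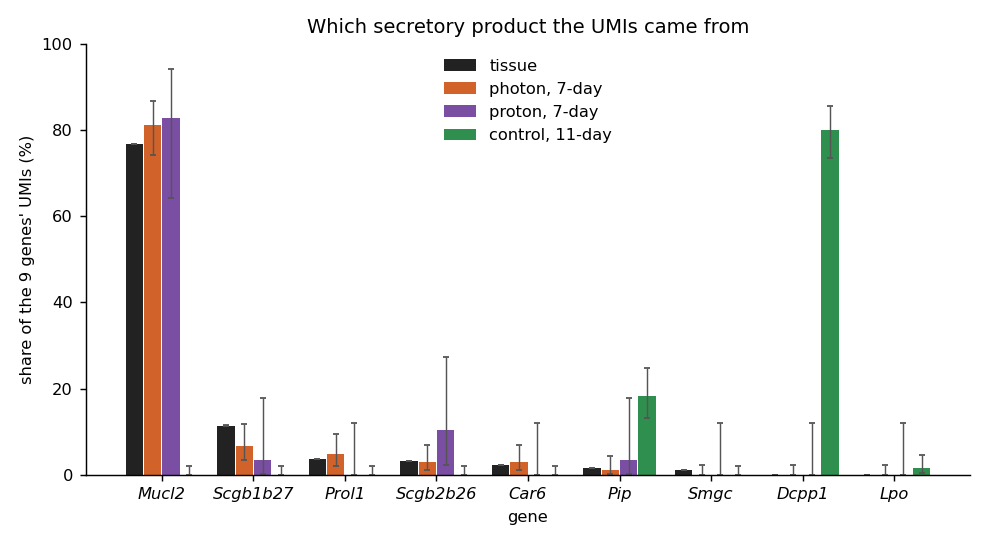
Share of the UMIs of the 9 genes that came from each gene (%, bars) with 95% counting intervals, in tissue (4045647 UMIs), photon (164), proton (29) and 11-day (185) libraries; the 7-day control, with 8 UMIs, is not drawn. Mucl2 leads in tissue and in both irradiated libraries, and Dcpp1, at 80.0%, in the 11-day library.

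In 11-day mSGOs the listed products were different ones. Mucl2, Prol1, Scgb1b27, Scgb2b26, Car6 and Smgc had 0 UMIs among 32102942, which allows up to 0.0935 CPM. Mucl2 was therefore at least 5608549-fold lower than in tissue. For Smgc the bound is less sure, as Smgc lies wholly within Muc19 on the same strand. Only the 11-day gene list held Muc19, and whether Smgc reads were lost to the overlap was not tested. Dcpp1 had 148 UMIs (4.61 CPM, 3.90 to 5.42), Pip 34 (1.06 CPM, 0.734 to 1.48), Lpo 3 (0.0935 CPM, 0.0193 to 0.273) and Muc19 1.

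Against tissue, Dcpp1 was 28.3-fold (23.7 to 34.0) lower, a direction that turned in barcodes with at least 2500 genes (log2 ratio 2.17), Pip 9941-fold (7113 to 14356) and Lpo 722-fold (245 to 3518). The 11-day barcode described next, with 147 of the 148 Dcpp1 UMIs, had 3046 genes and met the limit of 2500. Each of the 9 genes was at least 2-fold lower, as were 2.87% of the 6552 genes that passed the minimums (90.5% were at least 2-fold higher), and again the 9 passed them only through tissue. Summed over the 9 genes the level was 5.76 CPM, a log2 ratio to tissue of -16.62 (-16.81 to -16.44). It was 11.4-fold (5.67 to 26.8) above the 7-day control, a log2 ratio of 2.17 that was 0.54 without the 1 barcode described next. No member passed the minimums in that comparison, in which 48.8% of 6604 genes were at least 2-fold higher and 5.83% lower.

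Nearly all of the Dcpp1 came from 1 barcode. It held 147 of the 148 UMIs, and the level without it was 0.0312 CPM. This barcode had 8609 UMIs and lay in the cycling-like cluster. It also held 174 of the 195 Dcpp3 UMIs of the library, 421 of Wfdc2, 8 of Aqp5 and 7 of Top2a, a gene of dividing cells, and 0 of Dcpp2. As the Dcpp1 gene lies within Dcpp2, that 0 is uncertain too. The other 21 Dcpp3 UMIs were in 1 barcode of the myoepithelial-like cluster. No further barcode of the 9484 had more than 1 Dcpp1 UMI.

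Pip was spread over 16 barcodes, with at most 9 UMIs in 1. Of its 34 UMIs, 26 lay in 10 barcodes of the myoepithelial-like cluster, which had 306 barcodes, where it reached 29.7 CPM (19.4 to 43.5). The share of that cluster with a Pip UMI was 3.27% (1.58 to 5.93), and in cluster 1, the largest, it was 0.0416% (0.00105 to 0.231), at median depths of 2589.5 and 3149 UMIs. The Pip barcodes carried the basal keratin Krt14 in 15 of 16, as did 8104 of the 9468 other barcodes. The acinar marker Aqp5 was at 55.6 CPM in the Pip barcodes, 91.6 CPM in the rest of that cluster and 13.4 CPM in all barcodes without Pip. None of the 16 held a UMI of the contractile genes Acta2, Cnn1, Mylk or Tagln. These genes were found in few barcodes, with UMIs in 19, 6, 46 and 11 of the 9468 other barcodes. They were higher in the other 296 barcodes of the myoepithelial-like cluster, at 83.34, 2.348, 8.216 and 5.869 CPM. In all barcodes without Pip they were at 2.465, 0.1872, 1.529 and 0.4056 CPM.

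The single Muc19 UMI and the 3 of Lpo lay in 4 different barcodes, 1 of which also held a Pip UMI, and both genes were at or below the floor of 3 counts. Muc19, the gel-forming mucin of mucous acini, was not analysed here in the other 4 libraries.

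Other secreted proteins of saliva were read from a list of 27. In the 7-day control 5 of them passed the minimums against tissue, and all 5, Scgb2b27, Wfdc12, Wfdc18, Dcpp3 and Dcpp2, were at least 2-fold lower, with a median log2 ratio of -7.46 against 1.78 for all genes that passed, 5.17% of which were lower. These 5 passed only through tissue, with at most 78 UMIs in the control, so their direction is a description. In 11-day mSGOs 7 passed, of which 4 were lower (2.87% of all genes were) and 2 higher (90.5% were), with a median of -4.64 against 2.46. The 4 passed only through tissue and the 2 only through the 11-day library, so these directions are a description as well. The 2 that were higher were Ltf, lactotransferrin, an iron-binding antimicrobial protein, and Amy1, the salivary amylase.

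Ltf had 0 UMIs in tissue, 5 in the 7-day control and 1840 (57.3 CPM) in 11-day mSGOs, 75.4% of them in cluster 5, led by Sprr2d, Krt6b and Psca. Amy1 had 1 UMI in tissue, 1 in the control and 1149 (35.8 CPM) in 11-day mSGOs. These were spread over 10 of the 11 clusters, with at most 4 UMIs a barcode. The 11-day library was counted with another software version and gene list than the other libraries, and the part of this in the Amy1 and Ltf values was not tested. Wfdc18 was at 286 CPM in tissue, 2.59 in the control and 300 in 11-day mSGOs, and with Ltf and Amy1 it made up the 3 genes of the list that passed the minimums between the ages. All 3 passed only through the 11-day library, where they were higher, as were 48.8% of all genes. Scgb2b27, at 48681 CPM in tissue, had 0 UMIs at 11 days.

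Of a list of 10 acinar transcription factors, 4 passed in the 7-day control, and 3 of these, Bhlha15, Creb3l1 and Etv1, were at least 2-fold lower than in tissue (5.17% of all genes were) and had passed only through tissue. At 11 days 5 passed, with the same 3 lower (2.87% of all genes were), again passing only through tissue, and Xbp1 and Creb3l2 within 2-fold. Creb3l2 was at 15.9 CPM in tissue, 5.24 in the control and 21.9 at 11 days, and Foxa1, which did not pass, at 2.70, 6.76 and 14.3 CPM. Bhlha15 (Mist1), which builds the secretory apparatus of serous cells, was at 36.6 CPM in tissue and had 0 UMIs in the control, 0 after photons, 1 after protons and 1 at 11 days. Creb3l1 was at 34.9 CPM in tissue and at 0.316 to 0.553 CPM in mSGOs. Etv1 was at 35.6 CPM in tissue, 0.379 in the control and 1.68 at 11 days. Xbp1, the regulator of the unfolded protein response and of endoplasmic reticulum growth, was at 66.3 CPM in tissue, 33.0 in the control and 53.3 at 11 days, a log2 ratio of -0.31 (-0.47 to -0.15) at 11 days.

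Genes of the endoplasmic reticulum and of secretion, which every secreting cell uses, were closer to their tissue level than the products. Of 34, 31 passed in the 7-day control, and 2 were at least 2-fold lower than in tissue and 13 higher, against 5.17% lower and 78.3% higher of all genes. The median log2 ratio was 0.89 against 1.78 for all genes. With the listed genes left out of the totals, 17 of 34 were lower and 0 higher, against 19.6% lower and 20.47% higher of all genes. At 11 days 34 passed, with 2 lower and 17 higher, against 2.87% lower and 90.5% higher of all genes. The median was 0.97 against 2.46 for all genes. With that other total 11 were lower and 0 higher, against 9.72% lower and 43.45% higher of all genes. The pair that was lower with the full total was the same, Derl3 (47.8 CPM in tissue, 0.568 in the control, 1.18 at 11 days) and Sdf2l1 (25.5, 11.2 and 8.94 CPM). Both reached 20 CPM only in tissue and so passed only through it, and their direction is a description. The chaperone Hspa5 was at 180 CPM in tissue, 333 in the control and 515 at 11 days, and the translocon subunit Sec61b at 192, 202 and 231 CPM. Ssr4 was at 206.7, 653.9 and 363.7 CPM, and Spcs2 at 172.5, 165.2 and 278.9 CPM.

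As 68.28% of the tissue UMIs came from the 9 products, the choice of total moves these ratios and turns some of the directions. With the listed genes left out of each total, the median of all genes moved from 1.78 to -0.044 in the 7-day comparison and from 2.46 to 0.81 in the 11-day one. The transcription factors that passed were then lower in 4 of 4 and 5 of 5, Xbp1 included. The 9 products were at least 2-fold lower in both comparisons with that total, as were 19.6% of 5060 genes at 7 days and 9.72% of 6985 at 11 days.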

How the data were processed

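Droplet-based 3′ single-cell RNA sequencing was read from the deposited matrices of UMI counts, 1 per library, which the authors made with Cell Ranger 5 on mm10 per the submitters' processing notes. The file headers name software 3.0.1 for tissue and 7-day libraries and 7.0.0 for the 11-day library, and the study's methods name GRCm39. Gene lists held 31053 genes in tissue and 7-day libraries and 32285 in the 11-day library, with 30406 in both. The deposited counts were not normalized.

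Barcodes with at least 200 genes and at most 5% mitochondrial UMIs were kept, and Scrublet doublets (16 in tissue, 378 control, 1355 photon, 2559 proton and 855 at 11 days) were removed at an expected rate of 0.8% per 1000 barcodes or, for photon, at its automatic threshold. Tissue and 11-day barcodes were clustered without the 10 genes (Leiden, resolution 0.8), and a cluster was named where at least 3 of its markers were 2-fold higher and 1 was among its top 10 genes. Tissue clusters 9 and 11 were left without a name after their leading genes were seen. Intervals at 95% were Clopper-Pearson for shares, exact Poisson for CPM and conditional exact binomial for ratios, and a gene with 0 UMIs was set at 3 counts for a bound. Log2 ratios used a pseudocount of 1 CPM. As each group was a single library, differences carry no test. Genes were read against the share of all genes with at least 200 UMIs in a pair of libraries and 20 CPM in the higher one that differed at least 2-fold.

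All listed genes were named, with the other genes among the 10 most abundant of tissue, the 4 most abundant of each of 3 gene lists, and any needed for a count of 5 or fewer. The genes, the 3 lists and the 13 marker lists were chosen with earlier results of these data known. Marker lists not given in the report summed as follows, in tissue and in the range of the 4 mSGO libraries. Luminal duct markers were at 6852 CPM and 4479 to 8351 CPM, intercalated duct at 79.5 and 951 to 1222, myoepithelial at 10.5 and 1.09 to 5.98, endothelial at 506 and 9.63 to 18.8, T or NK at 30.2 and 0.312 to 1.14, B or plasma at 17.2 and 0.295 to 0.685, fibroblast at 9.62 and 0.0631 to 0.592, pericyte at 2.36 and 7.85 to 15.9, and cycling at 41.01 and 105 to 415. A higher sum does not mean that every marker was higher. Of the intercalated duct markers, Kit was at 0 in each 7-day library and Gfra3 in every mSGO library, and Krt7 is also a luminal duct marker. The pericyte marker Pdgfrb was at 0 in tissue and in every mSGO library. Alternatives were the barcode filters, the denominator, the members, the pseudocount, the scaling, thinning and the clustering. Those that leave out secretoglobins, the 3 barcodes with the most UMIs or the barcode with the most Dcpp1 were added after seeing the data. The ratios and their intervals were tested on simulated data, for well-counted genes and small folds only. Genes with few UMIs, the floor of 3 counts and folds as large as those of the listed genes were not simulated. Python 3.11.15, scanpy 1.11.5, leidenalg 0.10.2, scipy 1.17.1 and numpy 2.4.6 were used. No per-sample column was left unused.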

Additional observations from a re-analysis of the deposited data

Results flagged for a closer look

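The tissue barcodes with under 200 genes enter the comparisons between libraries only where all deposited barcodes are used, and they carried the products at a level like that of the kept barcodes. The 9 genes made up 70.3% of their UMIs, over 11597 barcodes, with a median of 72.8% a barcode, and 68.28% of the UMIs of the 1402 kept barcodes. They held 57.65% of all deposited tissue UMIs.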

How the results depend on the processing

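The share of tissue UMIs from the 9 genes (68.28%) was 66.40% in all deposited barcodes, 74.98% in barcodes with at least 2500 genes, 61.14% without the mitochondrial limit, 68.17% with doublets kept and 26.09% where only barcodes with 1% or more of their UMIs from Malat1 were used. It was 15.86% without Mucl2, 67.58% without Smgc and Muc19, 58.26% without both secretoglobins, and 215.2% when set against the UMIs of the other genes. The log2 ratio of the 7-day control to tissue (-18.79) was -17.47 with the Malat1 limit, -20.45 with the listed genes left out of the totals, -17.19 without Mucl2, -20.11 with a pseudocount of 0.1 CPM and -20.46 with median-of-ratios scaling. For 11-day mSGOs against tissue (-16.62) it was -16.84 in all deposited barcodes, -14.48 at 2500 genes, -16.86 with the Malat1 limit, -18.28 with the other totals, -14.52 without Mucl2, -16.83 with 0.1 CPM, -19.05 with median-of-ratios scaling and -18.25 without the barcode with the most Dcpp1. Both stayed negative in each alternative run. The ratio of 11-day mSGOs to the 7-day control (2.17) was 4.565 at 2500 genes, 0.6094 with the Malat1 limit, 2.669 without Mucl2, 3.276 with 0.1 CPM, 1.114 with median-of-ratios scaling and 0.5371 without that barcode. The photon ratio to the control (2.23) was 0.2540 at 2500 genes, 0.8046 with the Malat1 limit, 1.011 without Mucl2 and 3.344 with 0.1 CPM. The proton ratio (0.53) was -0.01691 at 2500 genes, -0.2131 with the Malat1 limit and 1.071 with 0.1 CPM. Of the single genes, Dcpp1 at 11 days against tissue turned to 2.174 at 2500 genes, and the cause was not tested. The 11-day barcode with the most Dcpp1 had 3046 genes and stayed, whereas the tissue barcode with the most Dcpp1 had 216 and did not. The sign also changed for Lpo and Pip between the ages (-0.92 and -0.012 with median-of-ratios scaling), Prol1 after photons (-0.039 with the Malat1 limit), and Mucl2 (-0.017 at 2500 genes, -0.058 with the Malat1 limit), Scgb1b27 and Pip (both -0.045 with median-of-ratios scaling) after protons. Over all alternatives for single genes, these included, 27 of 81 lay within the counting interval for the 7-day control against tissue, 24 of 81 for 11 days against tissue, 17 of 43 between the ages, 26 of 45 for photons and 20 of 38 for protons. No paired analysis was possible because each group was 1 library. Intervals cover counting error only, and 1 library a group gives no measure of variation between animals or cultures.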

Other observations

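Klk1, a kallikrein that duct cells rather than acini secrete, was seen in the 11-day library in few barcodes. It had 60 UMIs there, in 4 barcodes of cluster 4, whose leading genes were Klk1, Klk1b3 and Klk1b11, and was at 6343 CPM in tissue.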
